A study of Drosophila melanogaster with 12 samples.

Results

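Hedgehog signalling and posterior compartment genes were examined in larval wing discs as a set of 7 genes, hh, en, inv, smo, ci, ptc and kn, chosen by name as anterior-posterior patterning genes and matched by FlyBase identifier. All 7 were found among the 14869 genes counted, and all 7 were among the 8346 genes with enough counts for a test. The RNA came from wing discs dissected from 3rd instar Drosophila melanogaster larvae raised at 25 degrees. The libraries came from 4 genotypes with 3 libraries each, namely ΔBAH mutAT1, ΔBAH, ASH1 WT and, without a transgene, wild type. The first 3 were transgenic lines in a w[1118] background, carried ash1[10]/ash1[22] and expressed an EGFP::ASH1 protein from a pTub transgene, and wild type was w[1118] alone. ASH1 is a Trithorax group protein, a class of chromatin factors that keep developmental genes active. The ASH1 WT transgene encodes the full protein, ΔBAH lacks the BAH domain, and ΔBAH mutAT1 also carries a mutated first AT hook. Of the mutant alleles, ash1[22] has an early stop codon and ash1[10] encodes a full-length protein with a point mutation in the SET domain, so the lines still hold some endogenous ASH1. The αTubulin promoter drives each transgene broadly, from a shared landing site on chromosome arm 2L, so each line stands for a single insertion. Wild type differs from the lines in both the alleles and the transgene, and a difference from it cannot be assigned to either. The replicates of a genotype were separate RNA preparations.

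In the wing disc, posterior cells express the paralogous homeodomain proteins Engrailed and Invected, which turn on hh and keep ci off. The secreted Hedgehog protein moves into the anterior compartment and binds the receptor Patched, which relieves the inhibition of the membrane protein Smoothened. Smoothened activity keeps the zinc finger protein Cubitus interruptus in its full-length activating form, and cells near the compartment border then transcribe ptc itself, dpp and kn (knot, also called collier), which patterns the central wing. The genes en, inv and hh are also known targets of Polycomb group repression, which Trithorax group proteins counteract. The comparisons therefore ask how RNA of these genes compares between discs that depend on an ASH1 variant and wild-type discs, and between the variants.

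Depth lay between 15083960 and 39180697 counts per library, and the 7 genes had between 1006 counts (kn, ΔBAH replicate 3) and 24860 counts (ci, wild type replicate 1) in a library. The targeted gene ash1, counted with its transgene, had 154.5 to 534.3 CPM (counts relative to the TMM-adjusted library size) in the transgenic libraries and 85.6 to 112.2 CPM in wild type, without overlap. Defining wing disc genes were expressed in every library, with 1036 to 2386 CPM summed over the 7 of 10 listed markers that were matched. Fat body genes (6 of 6 matched) summed to 13.6 to 254.9 CPM in the transgenic libraries and to 2819, 14.95 and 360.6 CPM in wild-type replicates 1, 2 and 3, and hemocyte genes (6 of 6 matched) summed to 24.9 to 86.4 CPM in the transgenic libraries and to 25.4 to 41.5 CPM in wild type. Wild-type replicate 1 thus stood apart in fat body genes, and it also had the highest Ubx, a haltere and hind-leg gene, at 37.1 CPM against 5.54 to 13.98 CPM in the other libraries. The part of these cells in the results below was not tested. Each library also carries an internal sample number, and the numbers form 3 runs of consecutive values, here called number blocks. Block 1 holds replicate 1 of ΔBAH mutAT1 and of wild type. Block 2 holds replicate 2 of ΔBAH mutAT1 and of wild type and replicate 1 of ΔBAH and of ASH1 WT, and block 3 holds the other 6 libraries. Depth was 15083960 to 17828101 counts in block 3, against 27871145 to 39180697 counts in blocks 1 and 2. A difference of block 3 from the others therefore cannot be told apart from one of depth. The supplement of the study gives 3 sequencing runs without listing their libraries, so that a block is such a run is an inference. It also reports that, over the whole data, wild-type samples clustered apart while the remaining samples clustered by run.

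The 7 genes differed widely in level. Exon length here is the union over all annotated transcripts of a gene. Levels and ratios per kilobase therefore depend on exons that may not be used in the disc. Per kilobase of exon, ci was the most abundant at 125.5 CPM per kilobase (median of 12 libraries, range 72.2 to 191.2), and every library had more ci per kilobase than any library had of the other 6 genes. It was followed by en (46.5, range 41.7 to 54.1), smo (39.7, range 29.8 to 47.2), hh (38.7, range 30.8 to 50.5) and ptc (32.8, range 28.1 to 37.5), neighbours whose ranges overlapped. The lowest were kn (14.3, range 8.34 to 18.1) and inv (12.9, range 11.3 to 16.3), which overlapped with each other and lay below all values of ptc. In a whole disc, fewer cells of a compartment and less RNA per cell cannot be told apart.

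The spread over the 12 libraries also differed between members. The SD of log2 CPM was 0.13 for en and 0.13 for ptc, lower than in all but 5.40% and 5.45% of the genes tested. It was 0.16 for inv, 0.21 for smo and 0.22 for hh, against a median of 0.35 over all genes tested. It reached 0.36 for kn and 0.47 for ci, whose highest library had 2.65 times the CPM of its lowest. Once the mean of each number block was removed, the SD fell to 0.21 for ci, 0.22 for kn and 0.14 for hh, against 0.20 for the median gene.

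None of the 7 genes passed an adjusted p of 0.05 in edgeR's quasi-likelihood test in any of the 6 genotype comparisons, and none had an unadjusted p below 0.05. This fit has no term for the number block. With that term none of the 7 was called either, while 11.1% of all genes were in the transgenic lines against wild type. In the mean of the transgenic lines against wild type 3.15% of all genes were called. For single lines against wild type this share was 2.17% (ΔBAH mutAT1), 1.93% (ΔBAH) and 1.92% (ASH1 WT). Between lines, 0% of genes were called for ΔBAH against ASH1 WT (0 genes, with 103 at an unadjusted p below 0.05 and 4 by DESeq2), and 0.0479% for ΔBAH mutAT1 against ΔBAH. The shares of genes at an unadjusted p below 0.05 were 1.23% and 1.95% in these 2 comparisons. Genes without any difference would give a share near the threshold itself. Both shares lie below it, so the tests between lines were conservative in this fit and their lack of calls is weak evidence. DESeq2 and limma-voom also called none of the 7 in any comparison. The median log2 fold change of the 7 genes in the transgenic lines was -0.06, against -0.001 over all genes tested. The comparisons with wild type share the same 3 wild-type libraries, and so their values are not independent.

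**Figure D1:**
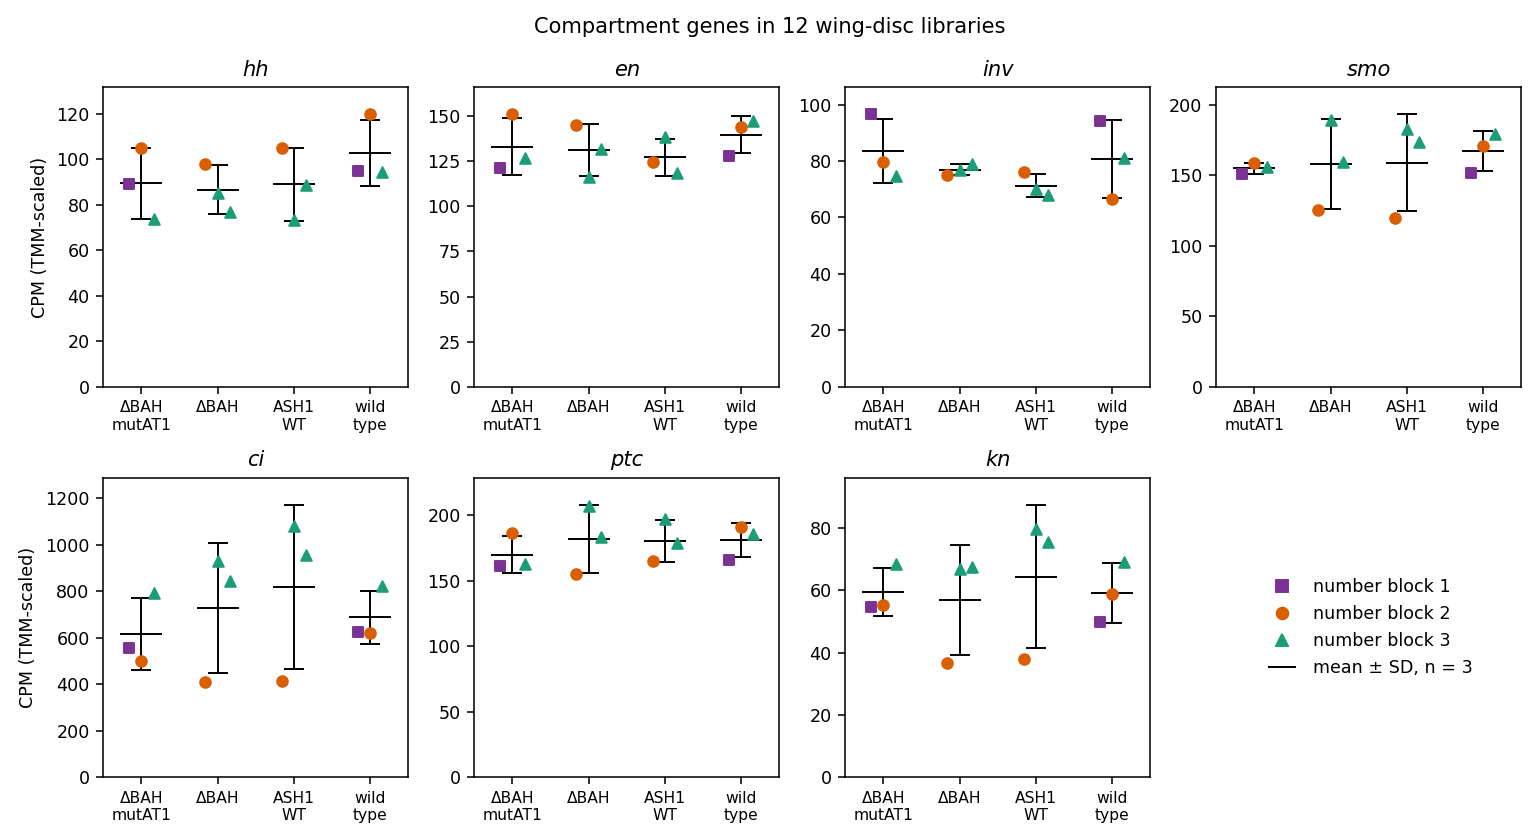
CPM (TMM-scaled, linear axis from 0) of the 7 genes in each library, by genotype; squares, circles and triangles are libraries of number blocks 1, 2 and 3, and bars give the mean ± SD of 3 libraries. The genotypes overlap for every gene, and in ci and kn the triangles of block 3 lie above all circles of block 2.

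The signal itself, hh (FBgn0004644, 3R:23128169-23141906, minus strand, 2370 bp of exons in BDGP6), encodes the ligand made by posterior cells. It had 89.3, 105.0 and 73.7 CPM in ΔBAH mutAT1 replicates 1, 2 and 3, 98.1, 85.3 and 76.6 CPM in ΔBAH, and 104.8, 73.1 and 88.8 CPM in ASH1 WT, against 94.9, 119.6 and 94.1 CPM in wild type. The 2 lower wild-type libraries lay inside the range of the transgenic libraries, and the highest value was that of wild-type replicate 2. The mean was 89.3 ± 15.6 CPM in ΔBAH mutAT1, 86.7 ± 10.8 CPM in ΔBAH, 88.9 ± 15.8 CPM in ASH1 WT and 102.9 ± 14.5 CPM in wild type (SD, n = 3 each). The log2 fold change of the transgenic lines over wild type was -0.22 (SE 0.15, 95% interval -0.56 to 0.11), with an edgeR Benjamini-Hochberg adjusted p of 0.87. The value was -0.10 without wild-type replicate 2, and lay between -0.28 and -0.18 when any other library was left out. The interval reaches from 0.681 to 1.08 times wild type, and a difference within it could not be told from none at this spread.

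The comparison of hh narrowed when libraries were set against the wild-type library of their own number block. All 9 transgenic libraries lay below it, by 0.19 on the log2 scale in the median. The same was true of 11.8% of all genes tested, and hh was the only member of the 7 with this pattern. It was not particular to compartment genes. Of the matched wing disc markers, nub, vg, Dll and zfh2 were also below in 9 of 9 libraries. The others were below in 7 (eyg), 4 (tup) and 3 (sd) of 9. With the number block as a term in the model, the common coefficient of variation between libraries was 14.4%, compared with 32.0% without it. The log2 fold change of hh was then -0.20 (SE 0.08). Its unadjusted p lay below the threshold and its adjusted p was 0.17 in edgeR's test, and so the gene was not called, while 11.1% of all genes were. By line it was -0.21 in ΔBAH mutAT1, -0.21 in ΔBAH and -0.17 in ASH1 WT in this model. Differences between lines were within their error, with a log2 value of 0.00 (SE 0.11) for ΔBAH mutAT1 against ΔBAH and -0.03 (SE 0.10) for ΔBAH against ASH1 WT. Each block has only 1 wild-type library, so the 9 values rest on 3 wild-type libraries. In the same model the wing disc markers Dll (-0.38), vg (-0.24) and zfh2 (-0.57) were called lower in the transgenic lines. Their edgeR adjusted p was 0.0241, 0.0353 and 0.0147. The markers nub (-0.33), eyg (-0.10), tup (-0.03) and sd (0.03) were not called.

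The selector genes of the posterior compartment lie next to each other on 2R. The gene en (FBgn0000577, 2R:11524006-11528210, minus strand, 2792 bp of exons) had 121.4, 151.0 and 126.9 CPM in ΔBAH mutAT1 replicates 1 to 3, 145.4, 116.4 and 132.0 CPM in ΔBAH, and 124.8, 138.4 and 118.3 CPM in ASH1 WT, against 127.8, 144.3 and 147.1 CPM in wild type. All genotypes overlapped. Its log2 fold change in the transgenic lines was -0.10 (SE 0.12, 95% interval -0.36 to 0.16, edgeR adjusted p = 1), which bounds the ratio to wild type between 0.781 and 1.12. The gene inv (FBgn0001269, 2R:11474465-11509695, plus strand, 5919 bp of exons) had 96.5, 79.6 and 74.7 CPM in ΔBAH mutAT1, 74.9, 76.9 and 78.8 CPM in ΔBAH, and 75.9, 70.1 and 67.9 CPM in ASH1 WT, against 94.2, 66.6 and 81.0 CPM in wild type. The wild-type libraries spanned nearly the whole range of the lines. The log2 fold change of inv was -0.06 (SE 0.12, 95% interval -0.34 to 0.21, edgeR adjusted p = 1).

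The proportion of the pair was not constant. Per kilobase, inv RNA was 0.274 times en RNA in the median library. The ratio was highest in both libraries of number block 1, at 0.375 in ΔBAH mutAT1 replicate 1 and 0.347 in wild-type replicate 1, and ranged from 0.218 to 0.311 in the other 10. In the model with blocks, inv was lower in block 2 than in block 1 (log2 -0.35, SE 0.11, edgeR adjusted p = 0.0454, where 19.3% of all genes were called), and its value in block 3 against block 1 was -0.33 (SE 0.11, adjusted p = 0.0566). Block 1 holds only 2 libraries. These had the highest Ubx of all, 37.1 CPM in wild-type replicate 1 and 13.98 CPM in ΔBAH mutAT1 replicate 1. The part of other tissue in these inv values was not tested. The flanking genes E(Pc) and tou, which lie on either side of the inv-en pair and encode chromatin proteins, had log2 fold changes of -0.01 and 0.15 in the transgenic lines, with adjusted p of 1 for both.

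For reception of the signal, RNA of the genes ptc and smo was measured, not reception itself. The receptor gene ptc (FBgn0003892, 2R:8649649-8665223, plus strand, 5521 bp of exons), which is both a component and a target of the pathway, had 161.0, 186.4 and 162.7 CPM in ΔBAH mutAT1, 155.1, 207.1 and 183.2 CPM in ΔBAH, and 165.0, 197.2 and 178.8 CPM in ASH1 WT, against 166.2, 190.8 and 185.6 CPM in wild type. It was among the steadiest members, with a log2 fold change of -0.03 (SE 0.12, 95% interval -0.29 to 0.24, edgeR adjusted p = 1) in the transgenic lines. The gene smo (FBgn0003444, 2L:277582-282167, plus strand, 4008 bp of exons) had 150.9, 158.6 and 155.8 CPM in ΔBAH mutAT1, 125.1, 189.0 and 159.8 CPM in ΔBAH, and 119.4, 183.0 and 173.8 CPM in ASH1 WT, against 151.7, 170.7 and 179.6 CPM in wild type. The lowest values were those of replicate 1 of ΔBAH and of ASH1 WT. Its log2 fold change was -0.09 (SE 0.16, 95% interval -0.44 to 0.26, edgeR adjusted p = 1). The exons of smo overlap those of CG11601 by 498 bp and of CG17078 by 587 bp on the opposite strand, and since it is not stated whether the counting used strand, reads there cannot be told apart with certainty.

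The transcription factor of the pathway, ci (FBgn0004859, chromosome 4, 47710 to 57041, minus strand, 5651 bp of exons), had the highest level and the largest spread. It had 555.3, 500.1 and 792.0 CPM in ΔBAH mutAT1 replicates 1, 2 and 3. In ΔBAH it had 408.1, 931.2 and 845.6 CPM, and in ASH1 WT 415.6, 1081 and 957.1 CPM, against 626.8, 618.8 and 821.1 CPM in wild type. Replicate 1 of ΔBAH and of ASH1 WT lay below all other libraries, and replicates 2 and 3 of the same lines lay above all others. The log2 fold change was 0.06 (SE 0.31, 95% interval -0.63 to 0.74, edgeR adjusted p = 1) for the transgenic lines over wild type, which is a ratio between 0.646 and 1.67. The genotypes are spread unequally over the number blocks. With the block as a term the value was -0.16 (SE 0.13, edgeR adjusted p = 0.481).

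The anterior target gene kn (FBgn0001319, 2R:14772650-14807061, minus strand, 4391 bp of exons) had a similar order of libraries at a lower level. It had 54.7, 55.1 and 68.3 CPM in ΔBAH mutAT1, 36.6, 66.6 and 67.4 CPM in ΔBAH, and 37.9, 79.6 and 75.4 CPM in ASH1 WT, against 49.8, 58.7 and 69.1 CPM in wild type. As for ci, the lowest libraries were replicate 1 of ΔBAH and of ASH1 WT. The log2 fold change was 0.02 (SE 0.24, 95% interval -0.52 to 0.56, edgeR adjusted p = 1) without the number block. With the block as a term it was -0.15 (SE 0.13, edgeR adjusted p = 0.517).

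**Figure D2:**
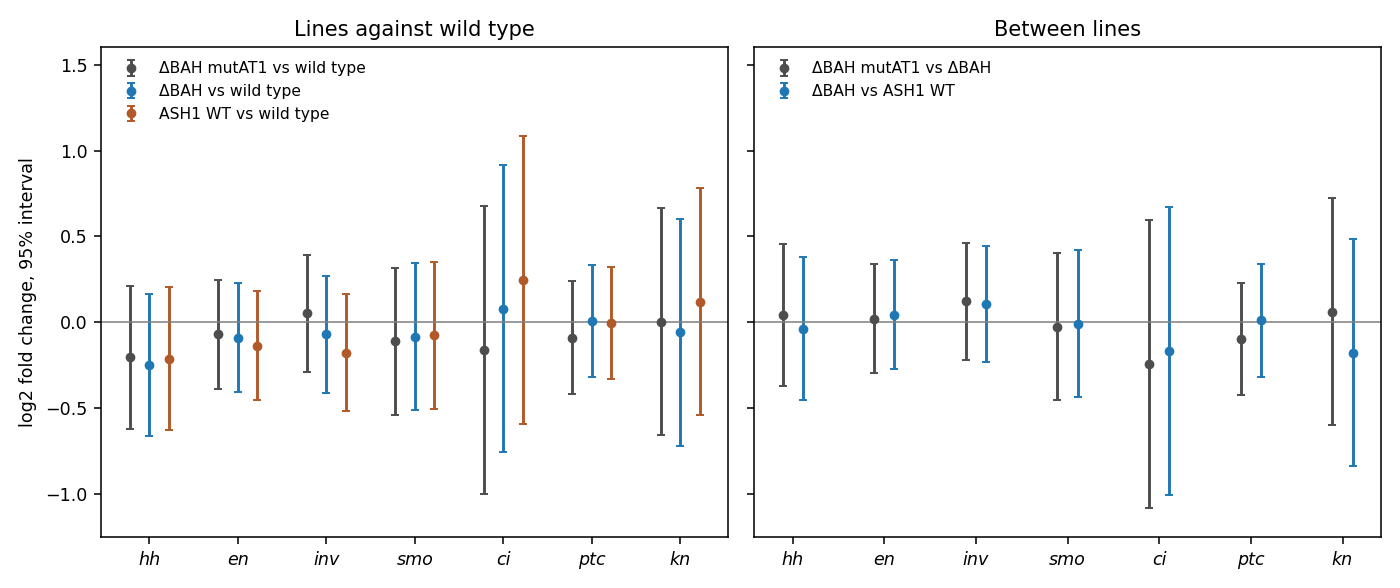
Log2 fold changes with 95% intervals from edgeR for the 7 genes, on the left for each transgenic line over wild type and on the right between lines. Every interval includes 0, and the intervals are widest for ci and kn.

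In the fit without the number block, the steps between variants were smaller than the standard error for each gene. The largest log2 fold change of ΔBAH over ASH1 WT was -0.18 (SE 0.30, 95% interval -0.84 to 0.48), for kn. For ΔBAH mutAT1 over ΔBAH, lines that differ by the mutated AT hook alone, the largest was -0.24 (SE 0.38, 95% interval -1.08 to 0.59), for ci, and the values of the posterior genes were 0.04 for hh, 0.02 for en and 0.12 for inv. The intervals of en, ptc and inv were the narrowest, and that of en ran from -0.30 to 0.34 in this comparison. For ci in this comparison the interval runs from 0.473 to 1.51 times ΔBAH. With the number block as a term, over which the 2 lines are spread unequally, ci was 0.03 (SE 0.17) for ΔBAH mutAT1 over ΔBAH, and the largest value was that of kn, 0.31 (SE 0.16, edgeR adjusted p = 0.92). For ΔBAH over ASH1 WT the block fit gave -0.16 (SE 0.15) for kn and 0.11 (SE 0.10) for inv, and no member was called. Since a p above the threshold does not show equality, these intervals are the limit on what may differ.

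The number blocks separated several members more clearly than the genotypes did. Between block 3 and block 2, 64.2% of all genes were called in edgeR's test, in a model with terms for genotype and block, and so were 4 of the 7 members, a smaller share than of all genes. Of these, ci was higher in block 3 by 0.91 on the log2 scale (SE 0.13, adjusted p = 7.71e-05), kn by 0.65 (SE 0.12, adjusted p = 0.000691) and smo by 0.31 (SE 0.10, adjusted p = 0.0191). The ligand hh was lower in block 3, with a log2 fold change of -0.37 (SE 0.08, adjusted p = 0.00161). The call of smo was lost without ASH1 WT replicate 1 (0.20, adjusted p = 0.131) or without ΔBAH replicate 1 (0.25, adjusted p = 0.0917). The remaining members had log2 values of -0.10 for en, 0.01 for inv and 0.10 for ptc and were not called. The median over all genes tested was -0.09 in this comparison. With RLE factors or without the filter on low counts, hh lay between -0.34 and -0.31. Against block 1, ci (0.65, adjusted p = 0.0359) and kn (0.60, adjusted p = 0.0411) were again higher in block 3, where 16.2% of all genes were called. Outside the 7, ash1 was also higher in block 3 than in block 2, by 1.00 (SE 0.175, adjusted p = 0.000355). It had 388.2 to 534.3 CPM in the transgenic libraries of block 3, against 154.5 to 233.6 CPM in those of block 2. In wild type it had 112.2 and 99.1 CPM in these blocks. The part of ash1 level in the values of the 7 genes was not tested.

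**Figure D3:**
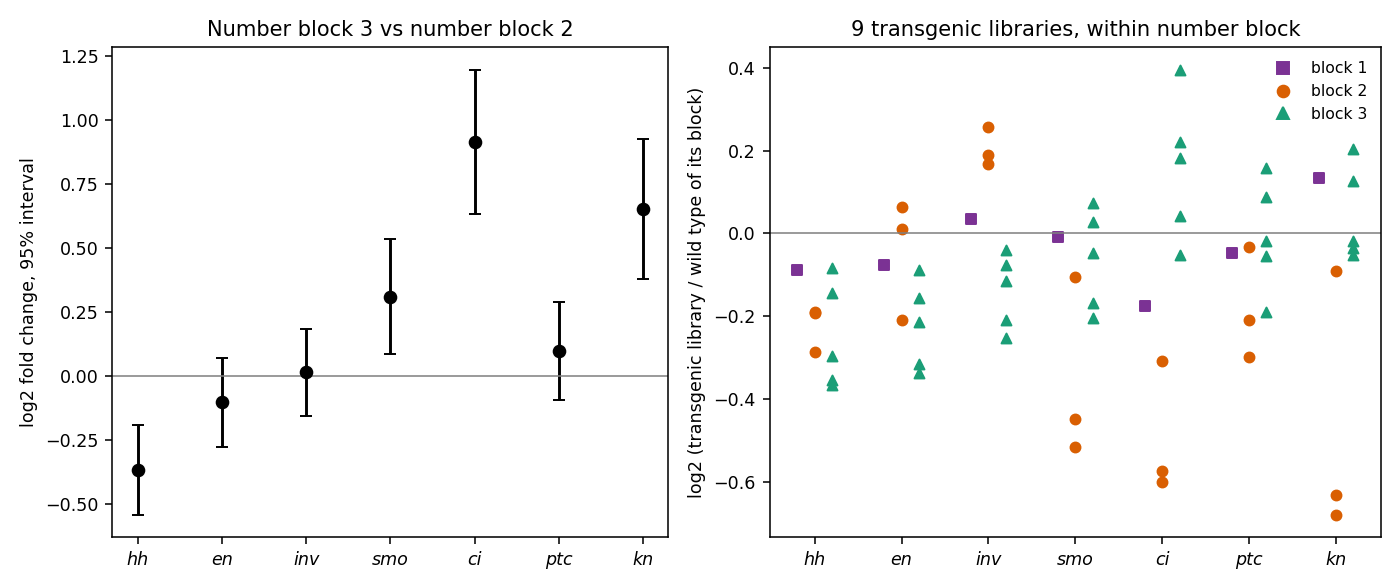
Left, log2 fold changes of the 7 genes between number block 3 and number block 2 with 95% intervals, where ci, kn and smo lie above 0 and hh below. Right, log2 ratio of each of the 9 transgenic libraries to the wild-type library of its own number block, where every point of hh lies below 0 and the points of inv lie above 0 in block 2 and below 0 in block 3.

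Every other member examined in this way stood in a lower proportion to ci in block 3 than in block 2, anterior and posterior genes alike. Per kilobase, hh RNA was 0.161 to 0.273 times ci RNA in the libraries of block 3, against 0.461 to 0.601 times in those of block 2 and 0.361 to 0.383 times in those of block 1. The ratio of en to ci was 0.250 to 0.363 in block 3, against 0.472 to 0.721 in block 2. The ratio of ptc to ci was 0.187 to 0.231 in block 3, against 0.316 to 0.406 in block 2, and that of smo to ci was 0.239 to 0.308 in block 3, against 0.389 to 0.447 in block 2. The ratio of kn to ci differed least, at 0.0921 to 0.111 in block 3, against 0.116 to 0.142 in block 2. These ranges share ci as their denominator, whose own level differed between the blocks. Marker genes of the disc and of other tissues differed between the same blocks. The 7 matched wing disc markers summed to 2040 to 2386 CPM in block 3, against 1036 to 1527 CPM in block 2, with nub, vg, sd, Dll and zfh2 called higher and eyg and tup at log2 values of -0.00 and -0.03. The 4 neuronal markers summed to 32.4 to 44.6 CPM in block 3, against 11.1 to 13.6 CPM in block 2, of which elav alone was called higher (1.96, edgeR adjusted p = 7.68e-08), while nSyb (-0.44) and Syt1 (-0.53) were not called. The 2 matched tracheal genes of 4 summed to 736.8 to 1007 CPM in block 3, against 1169 to 1429 CPM in block 2. Matched larval muscle markers summed to 26.7 to 34.4 CPM in block 3, against 35.6 to 50.3 CPM in block 2. Among the adult muscle precursor genes, twi (-0.72) and Him (-1.30) were called lower in block 3 and zfh1 (0.92) higher, while htl and Mef2 were not called. The part of any of these markers in the values of the 7 genes was not tested.

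The within-block ratios to wild type took both signs for members other than hh. The number of transgenic libraries below their own wild-type library was 7 of 9 for en, ptc and smo each, 6 of 9 for kn and 5 of 9 for ci and inv each. For ci, all 3 transgenic libraries of block 2 lay below wild-type replicate 2 (408.1 to 500.1 against 618.8 CPM), whereas 4 of the 5 of block 3 lay above wild-type replicate 3 (792.0 to 1081 against 821.1 CPM). The transgenic effect on ci was 0.65 higher in block 3 than in block 2 on the log2 scale (SE 0.25), with an adjusted p of 0.649 in edgeR's interaction test. This test called 0 of all genes, with 621 at an unadjusted p below 0.05.

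A further 31 genes were followed, covering the rest of the pathway, its targets and the 2 genes flanking inv and en. Of these, 25 were matched by identifier and 24 were tested, since sotv was listed at 0 counts in every library. None of the 24 was called in any of the 6 genotype comparisons in edgeR's test (3.15% of all genes in the transgenic lines over wild type), and 1 of them, ara, had an unadjusted p below 0.05 in that comparison. Genes for release and reception of the ligand (8 of 10 matched, 7 tested) had a median log2 fold change of -0.03 in the transgenic lines. The smallest p among them was that of ihog, an Hh co-receptor, with 0.14 (SE 0.14, adjusted p = 1). The intracellular pathway (11 of 14 matched and tested) had a median of -0.05, the target genes (4 of 5) of -0.11 and the flanking genes (2 of 2) of 0.07, against -0.001 over all genes. Between block 3 and block 2, 6 of 7, 11 of 11, 2 of 4 and 2 of 2 genes of these lists were called, against 64.2% of all genes. The largest of these differences was that of Pka-C1, 1.81 on the log2 scale, and among the flanking genes E(Pc) and tou were higher in block 3 by 0.98 and 1.17.

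With the number block as a term, 3 of the 24 genes were called in the transgenic lines against wild type, all lower, where 11.1% of all genes were called. The gene krz, which encodes a β-arrestin that takes part in Smoothened trafficking, had 46.2, 27.6 and 67.8 CPM in ΔBAH mutAT1, 28.2, 75.7 and 61.6 CPM in ΔBAH, and 22.7, 66.1 and 64.2 CPM in ASH1 WT, against 78.1, 56.1 and 94.5 CPM in wild type. The genotypes overlapped in CPM, but each transgenic library lay below the wild type of its own block. Its log2 fold change was -0.79 (SE 0.11, adjusted p = 0.000865 in edgeR) with the block and -0.58 (SE 0.37, adjusted p = 0.812) without it. It was called in each line with the block, at -0.77 in ΔBAH mutAT1, -0.73 in ΔBAH and -0.88 in ASH1 WT.

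The catalytic subunit of protein kinase A, Pka-C1, which phosphorylates Ci and Smoothened, showed the same order. It had 86.5, 42.3 and 122.6 CPM in ΔBAH mutAT1, 35.1, 130.0 and 123.0 CPM in ΔBAH, and 27.2, 116.1 and 112.5 CPM in ASH1 WT, against 115.0, 54.9 and 178.9 CPM in wild type. All 9 transgenic libraries lay below the wild type of their block. The log2 fold change was -0.59 (SE 0.09, adjusted p = 0.001 in edgeR) with the block and -0.40 (SE 0.52, adjusted p = 1) without it. By line it was -0.44 in ΔBAH mutAT1, -0.56 in ΔBAH and -0.77 in ASH1 WT, each called.

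The Iroquois gene ara, a target that marks proveins and the lateral notum, had 122.8, 133.3 and 120.4 CPM in ΔBAH mutAT1, 113.7, 131.5 and 143.4 CPM in ΔBAH, and 123.8, 124.1 and 119.2 CPM in ASH1 WT, against 139.9, 150.1 and 158.5 CPM in wild type. A single transgenic library, ΔBAH replicate 3, exceeded the lowest wild-type value. With the block the log2 fold change was -0.28 (SE 0.08, adjusted p = 0.0455 in edgeR), and without it -0.25 (SE 0.10, adjusted p = 0.369). The call was marginal, since it was lost when any of 9 of the 12 libraries was left out, with adjusted p up to 0.189. The neighbouring paralogue caup was also below the wild type of its block in 9 of 9 libraries, at -0.17 (SE 0.06, adjusted p = 0.122 with the block), so that 4 of the 24 genes shared this pattern, against 11.8% of all genes. None of these 3 genes was called between ΔBAH and ASH1 WT or between ΔBAH mutAT1 and ΔBAH in this model (adjusted p of 0.939 or more).

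**Figure D4:**
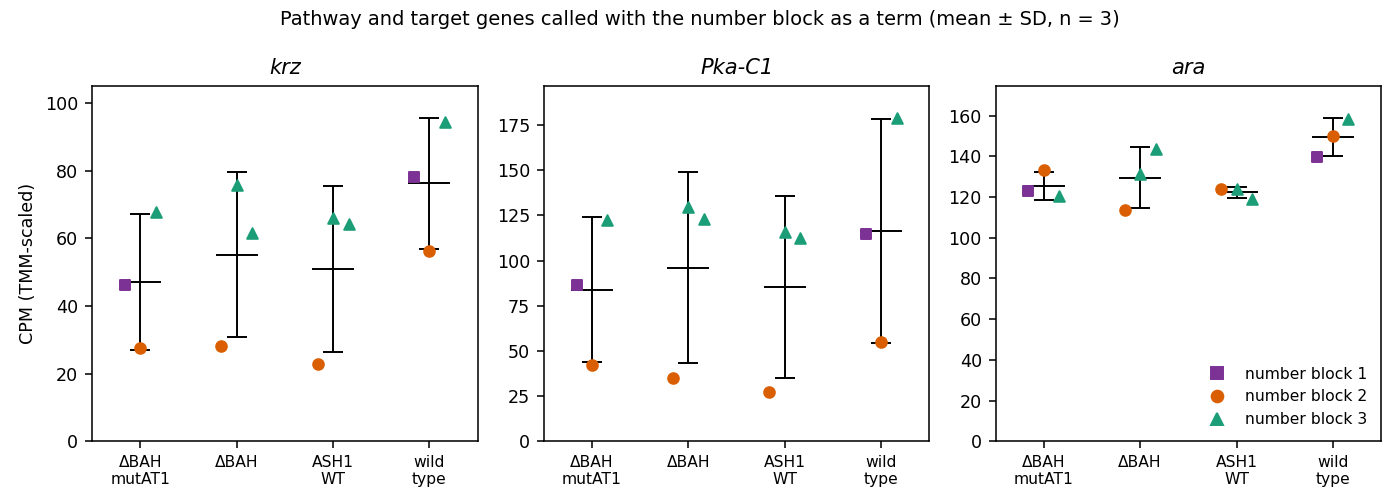
CPM (TMM-scaled, linear axis from 0) of krz, Pka-C1 and ara by genotype, with number blocks 1, 2 and 3 as squares, circles and triangles and bars for the mean ± SD of 3 libraries. For each symbol the transgenic libraries lie below the wild-type library of the same symbol.

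The genes whose log2 CPM most resembled each member were found by Pearson's r over the 12 libraries, which share depth and number block, so the values are a description. For hh these were GNBP1 (r = 0.953), CG11200 (0.947) and FBgn0035289 (0.947), and over the 6 libraries of block 3 the first had r = 0.899. For ci they were Rnf146 (0.989), bon (0.986) and svr (0.986), and for kn CG31195 (0.984), Mad (0.972), the transducer of Dpp signalling, and FBgn0067895 (0.969). For smo they were Nrx-IV (0.987), Tmtc3 (0.968) and fz2 (0.962), a Wingless receptor gene. The steadier members had lower maxima. For en these were CG1492 (0.824), CG6656 (0.815) and Dr (0.789), for inv Pmvk (0.915), Taf9 (0.906) and LTV1 (0.857), and for ptc FBgn0015541 (0.897), FBgn0250876 (0.895) and fdl (0.893).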

How the data were processed

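Poly(A) RNA of 12 wing-disc libraries was sequenced single-end. Per the labels and methods, the authors aligned reads with TopHat2 2.0.9 to dm3, counted them per Ensembl gene with HTSeq 0.5.4p3 and deposited raw counts without normalization. Strand use and treatment of multiply mapped reads in the counting are not given in the sources used here. Symbols, positions and exon lengths came from BDGP6, which covers 13524 of the 14869 identifiers, while counts refer to the older build. No genome sequence was used, and no sequence is shown.

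Differential expression was tested in R 4.3.3 with the quasi-likelihood method of edgeR 4.0.16 (filterByExpr, minimum count 10; TMM; 1 coefficient per genotype over all 12 libraries; prior count 0.125), with Benjamini-Hochberg adjustment over 8346 genes. Intervals derive from the F statistic. A second fit added the number block. The script was tested on simulated counts with the spread of the second fit and no difference between blocks. That test does not show how the main fit behaves where blocks differ. Alternatives were RLE factors, no filter, DESeq2 1.42.0, limma-voom (limma 3.58.1) on all genes, a replicate block, the number block, only the libraries compared, and leaving out each library.

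Named are the members in every library, ash1, list genes with an adjusted p below 0.05 and the gene with the smallest p per list, and the 3 genes most like each member. Pka-C1, krz, ara, caup and the flanking genes were named with values after these were seen. Members and lists were chosen with earlier results of these data known. Identifiers of 6 pathway genes (ttv, dally, slmb, rdx, Gprk2, sbb) were not matched. Over all libraries, summed marker levels spanned 150.8 to 229.5 CPM (adult muscle precursor), 26.7 to 50.3 (larval muscle), 0.0568 to 8.42 (salivary gland, ng1 at 0) and 55.3 to 123.2 (eye, leg and haltere discs).

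Replicate numbers were checked as pairs by correlating deviations from genotype means. Every correlation exceeded 0.1 for ΔBAH mutAT1 and wild type (0.388, 0.335 and 0.363) and for ΔBAH and ASH1 WT (0.739, 0.496 and 0.395), but not for the other pairs (-0.363 to 0.399). In the former pairings the same-numbered libraries always share a number block, whereas the other pairs mix blocks in some replicates. The correlations therefore cannot tell pairing of replicates from a shared block. The main fit has no pairing term.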

Additional observations from a re-analysis of the deposited data

Results flagged for a closer look

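The transgenic libraries lay on opposite sides of wild type in the 2 larger number blocks for inv. In block 3 all 5 transgenic libraries had less inv than wild type (67.9 to 78.8 against 81.0 CPM), while in block 2 all 3 had more (74.9 to 79.6 against 66.6 CPM). The difference between the blocks in the transgenic effect was -0.34 on the log2 scale (SE 0.18, adjusted p = 0.65 in edgeR's interaction test), and so it did not pass. Each block holds a single wild-type library.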

How the results depend on the processing

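None of the 7 members was called in any genotype comparison under any alternative run (791 fits, 708 with the same direction), and the sign changed in 83, of which 56 left out a library. Log2 values with a changed sign lay within 0.020 of 0, except with the number block or with a library left out. With the number block they reached -0.224 (ci in ΔBAH over wild type). With a library left out they reached 0.205 (kn in ΔBAH over wild type). With RLE factors they were 0.006 for ptc in ASH1 WT and -0.002 for kn in ΔBAH mutAT1 over wild type, 0.004 for smo in ΔBAH over ASH1 WT and -0.005 for en in ΔBAH mutAT1 over ΔBAH, and with DESeq2 0.006, -0.002, 0.005 and -0.006 for the same results. Without the filter they were 0.003 and -0.004, and with limma-voom 0.002 and -0.003, for ptc in ASH1 WT and kn in ΔBAH mutAT1 over wild type. With only the libraries compared, ptc in ASH1 WT over wild type was 0.018. For the transgenic lines over wild type, limma-voom gave -0.002 for ci and -0.020 for kn, and the replicate block -0.003 for both. The replicate block changed no call of a member. With the number block, values over wild type were 0.018 for inv, -0.163 for ci and -0.147 for kn in all lines, 0.052 for inv, -0.063 for ptc and -0.224 for ci in ΔBAH, and -0.076 for ci and -0.143 for kn in ASH1 WT, and over ΔBAH they were 0.094 for smo and 0.035 for ci in ΔBAH mutAT1. Leaving out each library in turn gave ranges across 0. In all transgenic lines against wild type these were inv (-0.185 to 0.083), kn (-0.068 to 0.144), ptc (-0.066 to 0.020), ci (-0.030 to 0.198), tou (-0.098 to 0.430) and Pka-C1 (-0.737 to 0.050). In ASH1 WT against wild type these were ptc (-0.072 to 0.055), smo (-0.189 to 0.092), ci (-0.004 to 0.564) and kn (-0.062 to 0.389). In ΔBAH against wild type these were inv (-0.191 to 0.083), ptc (-0.101 to 0.135), kn (-0.201 to 0.205), smo (-0.237 to 0.085) and ci (-0.140 to 0.392). In ΔBAH mutAT1 against wild type these were kn (-0.111 to 0.126) and inv (-0.067 to 0.189). In ΔBAH against ASH1 WT these were hh (-0.164 to 0.099), ptc (-0.095 to 0.121), smo (-0.176 to 0.142), ci (-0.484 to 0.126), kn (-0.447 to 0.067) and en (-0.027 to 0.122). In ΔBAH mutAT1 against ΔBAH these were kn (-0.200 to 0.202), en (-0.080 to 0.083), ptc (-0.223 to 0.011), smo (-0.194 to 0.126) and hh (-0.087 to 0.166). In block 3 against block 2 this was inv (-0.045 to 0.078).

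Counts of all genes called were 263 in the transgenic lines over wild type. By line they were 181 for ΔBAH mutAT1, 161 for ΔBAH and 160 for ASH1 WT. Between lines they were 4 for ΔBAH mutAT1 over ΔBAH and 0 for ΔBAH over ASH1 WT. In this order DESeq2 called 461, 313, 330, 310, 14 and 4, and the number block as a term 927, 538, 522, 609, 15 and 3. Leaving out a library gave 141 to 272, 94 to 203, 92 to 179, 82 to 191, 2 to 4 and 0 to 1. With only the libraries compared, 90 were called in ASH1 WT and 99 in ΔBAH over wild type and 0 in ΔBAH mutAT1 over ΔBAH. In ΔBAH over ASH1 WT the unfiltered fit and limma-voom called 2 each, and the replicate block called 2 in ΔBAH mutAT1 over ΔBAH. The cause was not tested. Between blocks 3 and 2, chosen as a comparison after seeing the data, 3 to 4 members were called when a library was left out. With the block as a term krz (adjusted p up to 0.0121) and Pka-C1 (up to 0.0131) stayed called without each library, and ara was not called without the filter (adjusted p = 0.0509). Each of the 7 members had at least 1006 counts in every library.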
